A study of Danio rerio with 15 samples.

Results

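The genes described here are those whose level in mpeg1+ cells set il34-/- zebrafish apart from both control and csf1rDM fish of the same age. They were chosen from CPM, the reads of a gene scaled to all counted reads of that fish. A gene was taken when all 3 il34-/- fish at 1.5 months post fertilization (mpf) lay above, or all lay below, the 6 control and csf1rDM fish. The mean level plus 1 CPM also had to differ at least 3-fold from that of controls and from that of csf1rDM fish in the same direction, while these groups lay within 2-fold of each other. The lowest CPM on the higher side had to be at least 20. The rule was met by 113 of 35117 genes, 80 with a higher and 33 with a lower level in il34-/- cells. Because these values chose the genes, their levels at 1.5 mpf are given as a description without a test, and only the fish at 33 days post fertilization (dpf) took no part in the choice.

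RNA was sequenced from GFP+ cells sorted from single whole juvenile fish in which the mpeg promoter drives GFP, with 5 groups of 3 fish. Controls were wildtype fish with the reporter, sampled at 33 dpf and at 1.5 mpf. For control animals the paper also names another transgene, which drives mCherry, and it does not say whether the mutants carried it. The csf1rDM fish, sampled at both ages, were homozygous for csf1ra j4e1 and for csf1rb re01, and the il34-/- fish, sampled at 1.5 mpf only, were homozygous for il34 re03. All mutants carried the same GFP reporter. The titles of the older samples name 5 months where their stage gives 1.5 mpf. The cells were a mixture of every type that expresses the GFP reporter, in which fewer cells of a type and less RNA per cell cannot be told apart.

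Il34 is a secreted ligand of Csf1r, the receptor that supports the survival and proliferation of most macrophages, and the Csf1 ligands signal through the same receptor. In mice, loss of Il34 affects microglia and Langerhans cells more than other macrophages. In the skin and gut of zebrafish the mpeg1 reporter also marks metaphocytes, which resemble macrophages but do not come from blood stem cells. Much of the list below concerns growth. A cell that prepares to divide copies its DNA with the MCM helicase and its polymerases, and makes ribosomes in the nucleolus, where small nucleolar ribonucleoproteins modify ribosomal RNA before assembly factors fold it with ribosomal proteins.

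The libraries held between 5488201 and 106374902 counted reads, and between 7325021 and 28123979 in il34-/- fish. The levels of the targeted genes were set beside the labels. The il34 transcript itself was scarce, with 6.28, 9.85 and 20.2 CPM in il34-/- fish against 20.9, 18.6 and 10.7 in controls at 1.5 mpf, so the ranges overlapped and the level of this transcript does not check the re03 label. csf1ra was at 188, 107 and 192 CPM in controls at 1.5 mpf, 45.6, 23.7 and 74.7 in il34-/- fish and 0, 0.033 and 0 in csf1rDM fish. At 33 dpf, csf1rDM fish 2 held 31.8 CPM of it where the other 2 held at most 0.077. Fish 2 was also the library of 106374902 reads. It held 1023 CPM of gonad markers where the other 2 held 1.29 and 14.4, and 1626 CPM of connective tissue markers where they held 244 and 265.3. The mean of csf1rb at 33 dpf was 218.7 CPM in controls and 18.3 in csf1rDM fish. Since fewer cells of a type and less RNA per cell cannot be told apart, these levels alone do not check the csf1rDM label. The main MPEG1 gene (ENSDARG00000055290) was abundant in every fish, at 3968, 4806 and 3705 CPM in il34-/- fish. Control fish 1 at 1.5 mpf stood apart, with 19905 genes detected at equal depth against 13750 to 16698 in the others, and with a summed level of liver markers of 4579 CPM where the other fish of its group had 587.3 and 416.1. Of 23 cell type marker lists, the summed level in il34-/- fish lay below all controls of their age for 9 and above for 0, among them microglial markers at 3487 to 4208 CPM against 5462 to 6412, and the part of this in the levels of the members was not tested. Control fish 1 at 1.5 mpf had the highest control level for 45 of the 80 higher members. Without it the rule was met by 81 higher and 34 lower genes, of which 61 and 29 were members.

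Gene symbols are written as the reference table gives them, some in capitals, and 111 of the 113 members had a symbol. All 113 passed the filter on low counts and were tested among 17640 genes. In the edgeR quasi-likelihood test of il34-/- against control fish, which uses the contrast of the rule, 11 of the 80 higher members were called higher (0.363% of all genes tested) and 6 of the 33 lower members were called lower (0.323%). The smaller of the fold differences to the other groups had a median of 3.62 among the higher members, with a largest value of 7.86, and of 3.88 among the lower members, with a largest value of 83.5. These folds were computed on the mean plus 1 CPM. At the edge of the rule, RBBP4, a histone chaperone subunit, and TSFM, a mitochondrial translation factor, lay just inside with folds of 3.0 and 3.01, whereas SSB and DCAF13 lay just outside with 2.99 each. On the lower side, cfl1l, a cofilin-like gene, and nbr1b, which encodes an autophagy receptor, lay inside with 3.0 and 3.07, and NIPBL and VPS37A lay outside with 2.99 and 2.96.

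**Figure D1:**
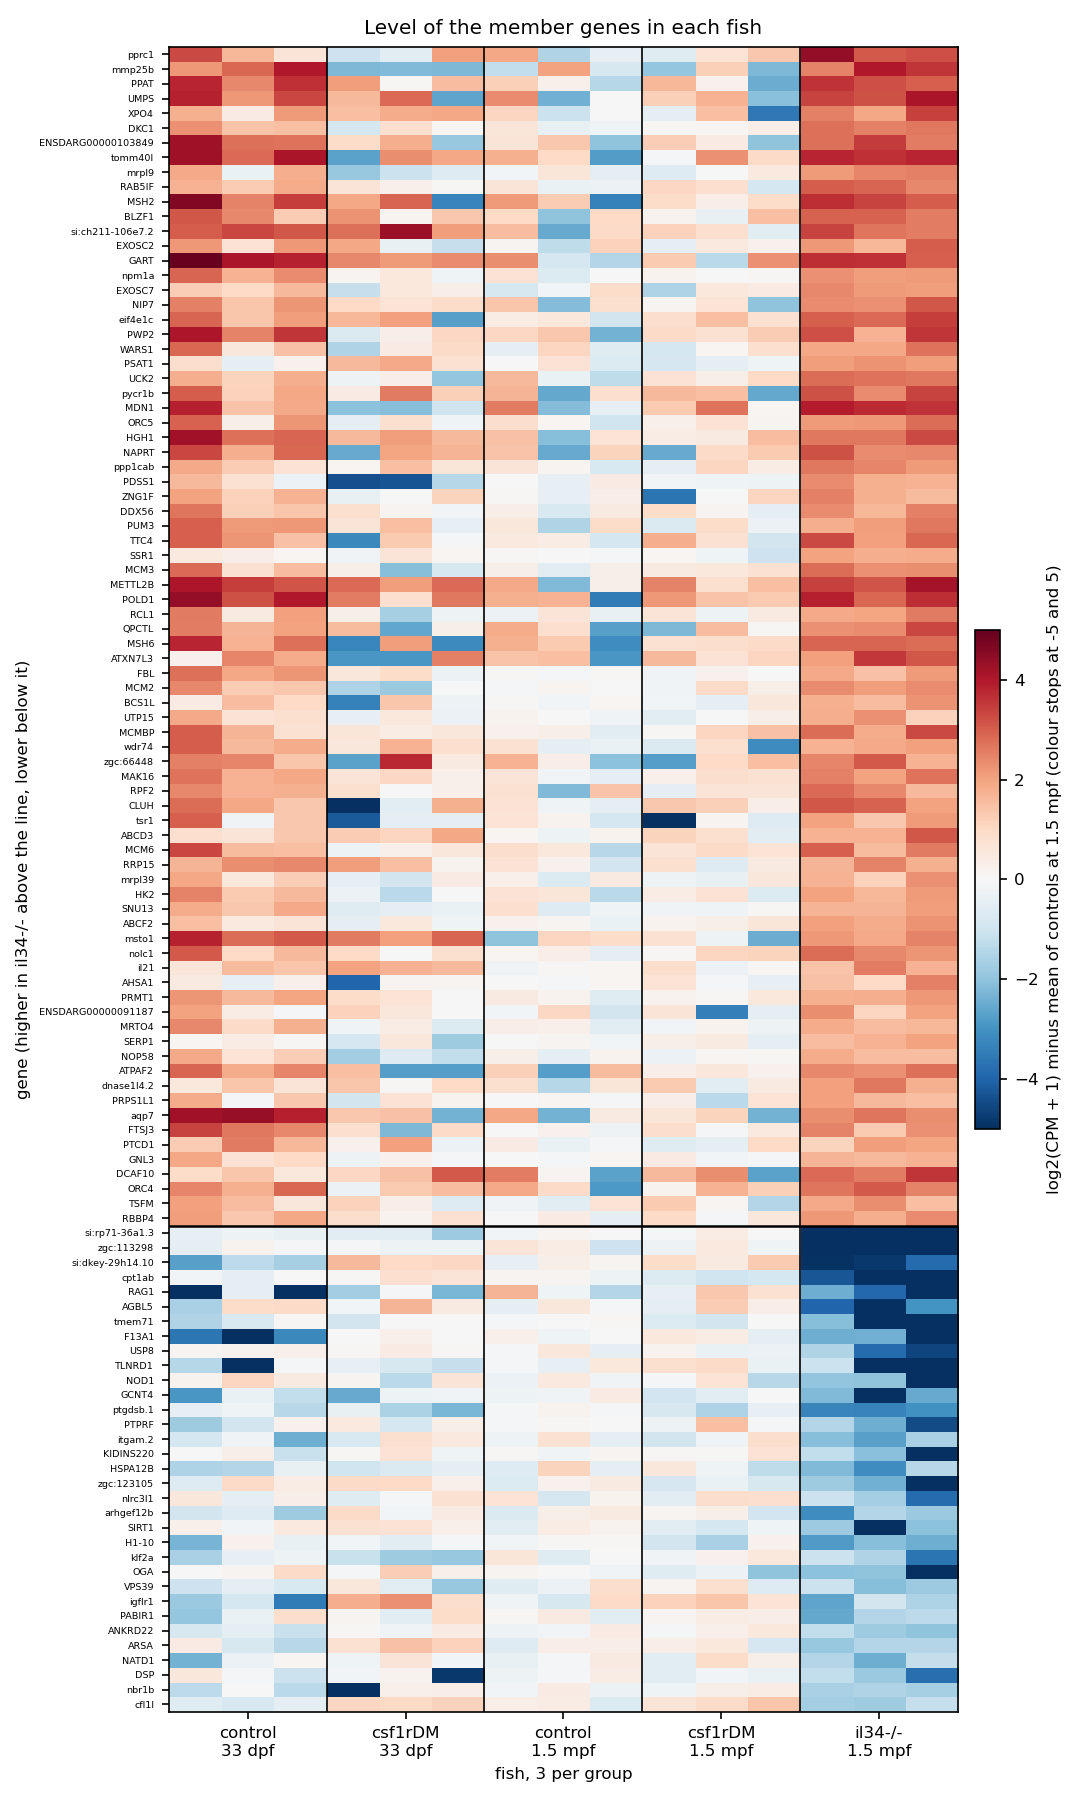
Level of the 113 member genes (rows, 80 higher above the line and 33 lower below it) in each of the 15 fish (columns, 3 per group), as log2(CPM + 1) minus the mean of the 3 controls at 1.5 mpf. Red is above and blue below those controls. The il34-/- columns are red above the line and blue below it by construction, and the columns of controls at 33 dpf are red for most of the higher members. The rule chose the controls at 1.5 mpf as the low side of these members, so nothing was read from the red at 33 dpf.

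Of the 80 higher members, 45 fell into pathway lists that were written after the members had been seen, HK2 stood in a further list and 34 stood in none. The largest number, 16, encode ribosome assembly factors, and 5 more encode parts of the small nucleolar ribonucleoproteins. Another 6 belong to the MCM helicase, its loader and partners, 4 to the replicative polymerases, clamp and mismatch repair, 5 to the synthesis of purines and pyrimidines and 2 to the RNA exosome. The remaining lists gave 2 genes each for serine, proline and one-carbon metabolism, for mitochondrial ribosomal proteins and for translation, and 1 of the Myc and PGC-1 families.

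The most abundant higher member was npm1a, which encodes nucleophosmin, a nucleolar chaperone of ribosome assembly. It was at 1154, 1007 and 1019 CPM in il34-/- fish, against 383, 144 and 231 in controls and 261, 231 and 245 in csf1rDM fish at 1.5 mpf. Its 3 il34-/- values lay close together and far above the highest control. Fibrillarin (FBL), NOP58 and SNU13 are among the core proteins of the box C/D particles that methylate ribosomal RNA. FBL was at 279.9, 211 and 329 CPM in il34-/- fish, 77.5, 71.3 and 77.5 in controls and 66.9, 86.5 and 75 in csf1rDM fish. NOP58 was at 622, 505 and 503 CPM in il34-/- fish, 207, 124 and 192 in controls and 137, 181 and 176 in csf1rDM fish. SNU13 (ENSDARG00000023299) was less abundant, at 104, 105 and 138 CPM in il34-/- fish against 57.4, 20.1 and 27.4 in controls and 28, 27.4 and 33.1 in csf1rDM fish, and for each of these genes the other groups overlapped with each other.

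DKC1, the pseudouridine synthase of the H/ACA particles and of telomerase, was among the members with the largest difference. Its level was 399.9, 342 and 369 CPM in il34-/- fish, 89.4, 45.6 and 50.1 in controls and 62.2, 63.9 and 73.7 in csf1rDM fish. nolc1, a nucleolar partner of both kinds of particle, was at 531, 407 and 359 CPM in il34-/- fish, 81.1, 96.6 and 56.1 in controls and 79, 159.9 and 164 in csf1rDM fish. Of the 14 genes in the list of these particles, the il34-/- fish lay above the 6 others for 11 (5.8% of all genes tested). This list was written after the members had been seen and holds 5 of them, which lie above by the rule. The count uses the contrast of the rule as well, so nothing was read from it.

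The assembly factors among the members act at successive steps. PWP2, UTP15 and RCL1 work on the small subunit, MAK16, RPF2, MRTO4 and GNL3 on the large one, and MDN1 is the giant ATPase that strips factors from the maturing large subunit. MDN1 was at 66.8, 58 and 54.2 CPM in il34-/- fish, whereas controls held 26.2, 0 and 2.35 and csf1rDM fish 10.1, 28.3 and 3.76. PWP2 was at 156, 54.3 and 198 CPM in il34-/- fish, 33.5, 41.5 and 2.23 in controls and 31.6, 27.3 and 39 in csf1rDM fish. NIP7, tsr1, wdr74, DDX56, PUM3, RRP15 and FTSJ3 completed the list, and for the 16 the smaller of the folds ran from 3.03 for GNL3 to 4.18 for npm1a. EXOSC2 and EXOSC7, subunits of the exosome that trims ribosomal RNA, were scarcer, and EXOSC7 was at 38.4, 31.4 and 30.7 CPM in il34-/- fish against 3.31, 5.81 and 13.1 in controls and 1.56, 9.65 and 8.93 in csf1rDM fish.

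**Figure D2:**
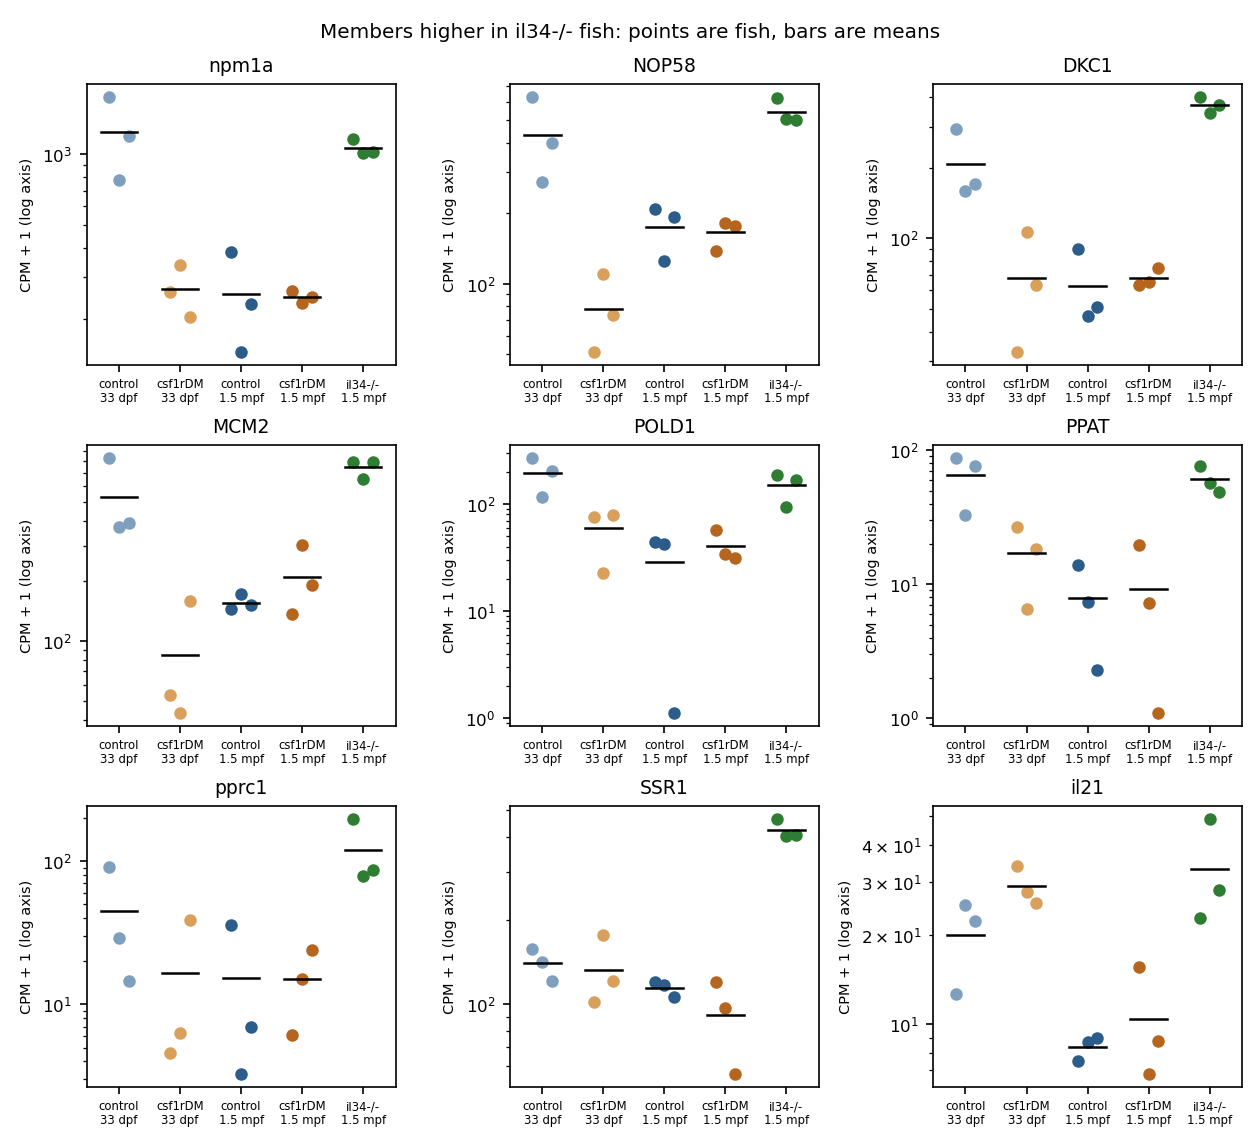
CPM plus 1 (log axis) of 9 members higher in il34-/- fish, with a point per fish and a bar at the mean of each group of 3. The il34-/- fish lie above all control and csf1rDM fish at 1.5 mpf, and the controls at 33 dpf reach the il34-/- range for npm1a, NOP58, POLD1 and PPAT but not for DKC1 and SSR1.

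Sums over whole lists, members or not, are given as a description, because the values at 1.5 mpf chose the members. The 110 measured ribosome assembly genes summed to between 9138 and 11130 CPM in il34-/- fish, against 4498 to 5308 in controls and 3860 to 4050 in csf1rDM fish at 1.5 mpf. The il34-/- fish lay above the 6 others for 47 of these 110 genes and below for 0, against 5.8% and 2.19% of all genes tested. This list was written after the members had been seen and holds 16 of them, which lie above by the rule. The sum and the count also use the contrast of the rule, so nothing was read from either. For 79 genes of cytoplasmic ribosomal proteins the sum was 13180 to 15180 CPM in il34-/- fish and 12860 to 15380 in controls, which overlapped, whereas csf1rDM fish held 5624 to 7055. None of these 79 was a member. The 73 mitochondrial ribosomal proteins summed to 2152 to 2572 CPM in il34-/- fish, 1219 to 1386 in controls and 1120 to 1475 in csf1rDM fish, and the il34-/- fish lay above the 6 others for 30 of them (5.8% of all genes tested). That list too was drawn up after the members had been seen and holds 2 of them, so nothing was read from its sum or its count.

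**Figure D3:**
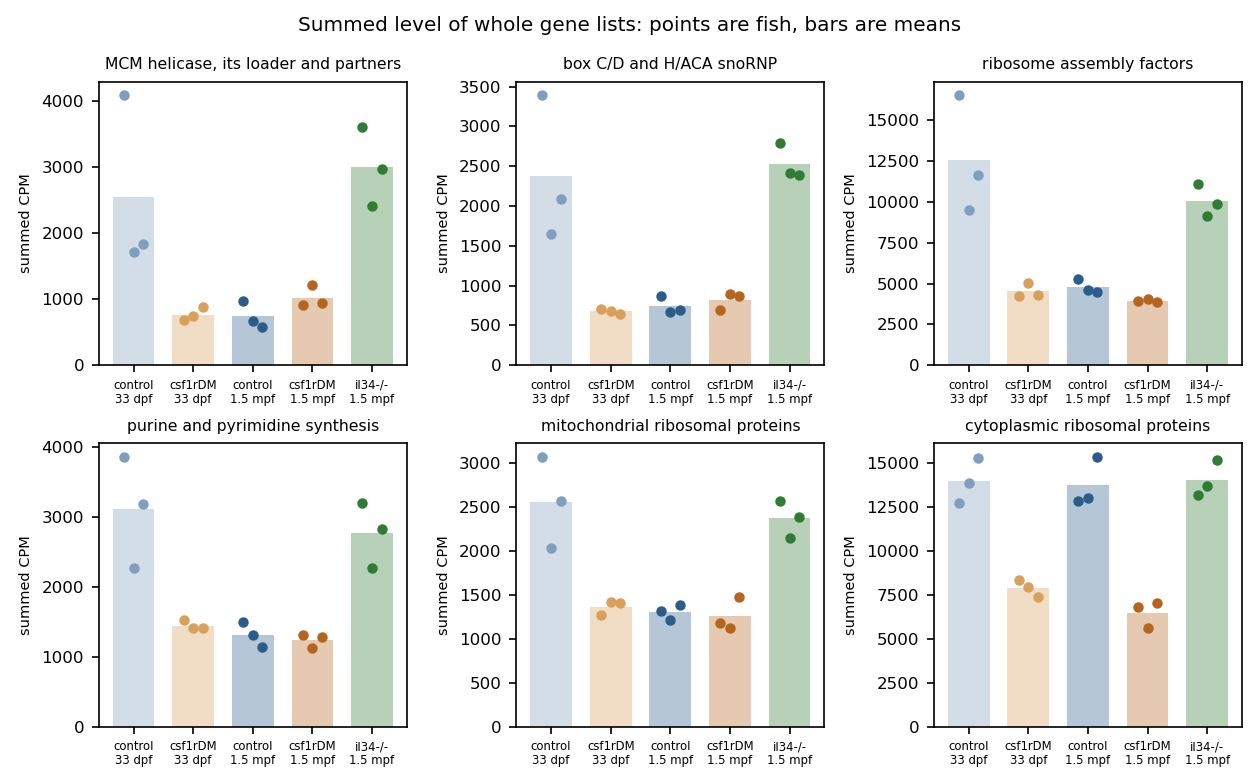
Summed CPM of 6 whole gene lists, members and other genes alike, with a point per fish and a bar at the mean of each group of 3. In 5 of the lists the il34-/- fish and the controls at 33 dpf lie above the 3 other groups, whereas for cytoplasmic ribosomal proteins the il34-/- fish lie among the controls of both ages and the csf1rDM fish lie below.

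The second group of higher members copies or repairs DNA. MCM2, MCM3 and MCM6 are subunits of the replicative helicase, MCMBP binds this complex, and ORC4 and ORC5 belong to the origin recognition complex that loads it. MCM2 was at 789, 653 and 796 CPM in il34-/- fish, against 143, 169.9 and 151 in controls and 136, 302 and 190.1 in csf1rDM fish at 1.5 mpf. MCM3 was at 605, 432 and 437 CPM in il34-/- fish, 107, 57.9 and 106.5 in controls and 119, 127 and 148 in csf1rDM fish. MCM6 (ENSDARG00000057683) varied most of the 3 within il34-/- fish, at 439, 163 and 330.2 CPM, with 100.3, 77.3 and 19.9 in controls and 84.2, 106.2 and 87.5 in csf1rDM fish. The other helicase subunits were not members, although MCM4 was at 362, 189.8 and 256 CPM and MCM5 at 394, 278 and 271 CPM in il34-/- fish, above the 6 others, whereas MCM7 overlapped with controls at 308, 135 and 157 against 155, 62 and 69.7 CPM.

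MSH6 takes part in the repair of mismatched bases behind the polymerase, and POLD1 is the catalytic subunit of polymerase delta. MSH6 was at 79.3, 77.7 and 71.9 CPM in il34-/- fish, 35.5, 25.5 and 0.235 in controls and 16.8, 18.4 and 19.7 in csf1rDM fish. POLD1 was at 187, 92.8 and 165 CPM in il34-/- fish, 42.9, 41.1 and 0.117 in controls and 56.6, 32.9 and 30.3 in csf1rDM fish, and control fish 3 was near 0 for both genes.

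The cell cycle list of 42 genes summed to between 5992 and 7555 CPM in il34-/- fish, 2909 to 3866 in controls and 3698 to 3962 in csf1rDM fish at 1.5 mpf. The il34-/- fish lay above the 6 others for 10 of the 40 that were tested (5.8% of all genes tested), namely PCNA, MCM2, MCM3, MCM4, MCM5, a copy of MCM6, RRM1 and a copy of RRM2, which form ribonucleotide reductase, TYMS, the thymidylate synthase, and tubb2b, a tubulin. This count uses the contrast of the rule and includes 3 members, so nothing was read from it. PCNA, the sliding clamp of the polymerases, was at 797, 599.6 and 757 CPM in il34-/- fish and 323, 238 and 182 in controls. For the rest of the tested genes in the list the il34-/- fish overlapped with the 6 others, and 3 of these genes are given as examples, chosen after their values had been seen. CDK1, the kinase that drives entry into mitosis, was at 15.7, 45 and 36.9 CPM in il34-/- fish and 53.2, 32.1 and 20.3 in controls. TOP2A, which untangles chromosomes before they part, was at 72.9, 61.7 and 107 and 137, 129 and 64 CPM in these groups, and mki67, a general marker of dividing cells, was at 169, 291 and 156 and 173, 93 and 186 CPM.

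The third group supplies nucleotides. PPAT catalyses the first committed step of purine synthesis, GART acts at several later steps of it, and UMPS completes the pyrimidine UMP. PPAT was at 74.7, 56 and 47.8 CPM in il34-/- fish, 13, 6.36 and 1.29 in controls and 18.5, 6.27 and 0.094 in csf1rDM fish at 1.5 mpf. UMPS was at 64.7, 56.4 and 105 CPM in il34-/- fish, 31.7, 0.182 and 5.39 in controls and 13.5, 19.7 and 0.47 in csf1rDM fish. GART was at 34.8, 34.2 and 21.2 CPM in il34-/- fish and at most 13.1 CPM in the 6 others, of which 2 were at 0.1 CPM or less.

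UCK2, which salvages uridine and cytidine, was at 294, 279.98 and 269 CPM in il34-/- fish, 132, 32.8 and 16.7 in controls and 69.3, 52.1 and 84 in csf1rDM fish, and its highest control was fish 1. PRPS1L1, annotated as a synthetase of the ribose donor PRPP, was at 492, 366 and 339, 116, 127 and 114 and 150.1, 46.7 and 191 CPM. The 28 measured genes of nucleotide synthesis summed to 2264 to 3201 CPM in il34-/- fish, 1146 to 1495 in controls and 1123 to 1314 in csf1rDM fish. PSAT1, an enzyme of serine synthesis, and pycr1b, an enzyme of proline synthesis, were members, and PSAT1 was at 59.4, 67.6 and 59.6 CPM in il34-/- fish against 13.2, 22.5 and 7.86 in controls and 7.02, 9.42 and 11.3 in csf1rDM fish. HK2, the hexokinase that commits glucose to the cell, was the only member in the list of glycolysis and hypoxia, at 289.8, 227 and 308 CPM in il34-/- fish, 117, 107 and 27.3 in controls and 91.3, 116 and 43.1 in csf1rDM fish.

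Several higher members serve mitochondria. The gene with the largest of the smaller folds was pprc1, a PGC-1-related coactivator of genes for mitochondrial respiration. It was at 195, 77.3 and 85.4 CPM in il34-/- fish, 34.6, 2.27 and 5.98 in controls and 5.07, 14 and 23 in csf1rDM fish at 1.5 mpf. tomm40l, of the family of the import pore in the outer membrane, was at 97.5, 86.2 and 97.6 CPM in il34-/- fish, 23, 13.1 and 0 in controls and 5.72, 32.5 and 12.6 in csf1rDM fish. mrpl9, a protein of the large mitochondrial ribosomal subunit, was at 70.4, 87.4 and 92.3, 13.7, 23.8 and 10.9 and 9.49, 15.1 and 22.1 CPM. Transcripts of the mitochondrial genome itself summed to 15020 to 19450 CPM in il34-/- fish, which was below the 20010 to 21720 CPM of controls and above the 10950 to 14670 CPM of csf1rDM fish.

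Of the Myc family, none was a member. MYC (ENSDARG00000045695), a transcription factor that drives many genes of growth, was at 157, 107 and 174 CPM in il34-/- fish and above the 6 others, but controls held 35.3, 35 and 58.2 and csf1rDM fish 9.11, 39.4 and 6.96 CPM, which differed by more than the rule allows. The transcript named MYC with identifier ENSDARG00000007241 overlapped between the groups.

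Translation and the secretory pathway gave a smaller set. eif4e1c, a cap-binding initiation factor, was at 111, 97.9 and 153 CPM in il34-/- fish against 17.3, 19.3 and 6.45 in controls and 25.1, 39 and 22.6 in csf1rDM fish, and WARS1, the tryptophan tRNA synthetase, at 21.4, 21.6 and 37.3 against 3.31, 11.3 and 2.81 and 2.21, 5.22 and 9.4 CPM. SSR1, a subunit of the translocon-associated complex of the endoplasmic reticulum, was at 462, 404 and 407 CPM in il34-/- fish, 119, 116 and 105 in controls and 119, 96.1 and 55 in csf1rDM fish. SSR1 was even within il34-/- fish and within controls, and lowest in csf1rDM fish 3. PRMT1, the main enzyme that methylates arginines asymmetrically, was at 607, 620.3 and 789, 242, 198 and 115 and 199, 182 and 255 CPM in the same order.

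Few higher members are tied to immune cells. mmp25b, a membrane-type metalloproteinase whose human counterpart is made by neutrophils, was at 25.5, 75.7 and 55.8 CPM in il34-/- fish, 1.03, 18.5 and 1.76 in controls and 0.26, 9.91 and 0 in csf1rDM fish. il21, a cytokine made in mammals by helper T cells, was at 21.7, 47.9 and 27.2 CPM in il34-/- fish, 6.5, 7.72 and 7.97 in controls and 14.6, 5.81 and 7.81 in csf1rDM fish. The neutrophil list summed to 1338 to 1971 CPM in il34-/- fish and 1752 to 2014 in controls, and overlapped. The list of T and NK cell genes summed to 6186 to 7461 CPM in il34-/- fish, below the 9113 to 10530 CPM of controls and the 7914 to 8244 CPM of csf1rDM fish, and CXCR4 and CCR9 made up most of it.

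The other members among the 15 with the largest folds were XPO4, a nuclear export receptor, BLZF1, a Golgi matrix protein, RAB5IF, EXOSC2, a predicted gene (ENSDARG00000097414) and a gene without a symbol (ENSDARG00000103849). XPO4 was at 67.4, 43.7 and 125 CPM in il34-/- fish, 23.6, 4.63 and 10.8 in controls and 7.67, 32.3 and 0 in csf1rDM fish. RAB5IF was at 130.2, 119 and 82.9 CPM in il34-/- fish, 23.8, 11.8 and 12 in controls and 32, 27.6 and 7.81 in csf1rDM fish. Many of these genes are near the limit of the assay in single fish. Of the 80 higher members, 27 had 3 counts or fewer in at least 1 of the 6 other fish at 1.5 mpf.

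The lower members were fewer, and none stood in the pathway lists. Those lists of growth genes were written after the members had been seen, so nothing was read from this absence. Of the 33, 4 stood in lists of cell type or response genes, namely itgam.2 among genes of phagocytosis and engulfment, NOD1 among pattern receptors, RAG1 among T and NK cell genes and klf2a among immediate early genes. The clearest were si:rp71-36a1.3 and zgc:113298. si:rp71-36a1.3 was at 1.91, 2.52 and 0.903 CPM in il34-/- fish, 212, 251 and 229.6 in controls and 214, 295 and 225 in csf1rDM fish at 1.5 mpf. At 33 dpf it was at 173, 191 and 176 CPM in controls and 157, 154 and 65.2 in csf1rDM fish, so the other 12 fish spanned 65.2 to 294.6 CPM. zgc:113298 gave 1, 1 and 0 reads in the il34-/- fish, whereas controls at 1.5 mpf held 78, 65.2 and 24 CPM and csf1rDM fish 42.1, 69.7 and 43.2. At 33 dpf it was at 36.3, 57 and 48.1 CPM in controls and 46, 41.3 and 42.1 in csf1rDM fish.

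In the gene order of the reference table, which follows another assembly, 90 members could be placed. si:rp71-36a1.3 and zgc:113298 lay on the same chromosome with 21 genes between them. The gene next to the first, si:rp71-36a1.2, showed the reverse pattern, with 130, 147 and 126 reads in il34-/- fish, 0 in all controls at 1.5 mpf and 9, 35 and 5 reads in csf1rDM fish. It was singled out after its values had been seen, and since the name marks a cluster of predicted genes whose copies may share reads, the counts of these genes are uncertain. Of the remaining members, OGA, which removes O-GlcNAc from proteins, and pprc1 were direct neighbours with opposite directions, and EXOSC7 and HGH1 were direct neighbours that were both higher. None lay within 5 genes of il34, and the 5 placed on its chromosome had between 208 and 412 genes between. A gene close to il34 that the rule did not take, tgm2l, a transglutaminase-like gene, was at 141, 45.9 and 40.8 CPM in il34-/- fish, 0, 0 and 0 in controls and 4.94, 6.4 and 0 in csf1rDM fish, and was also chosen after its values had been seen. The loss of il34 and other alleles that the il34-/- line may carry cannot be told apart here.

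cpt1ab and si:dkey-29h14.10 were also close to absent. cpt1ab, of the family of carnitine palmitoyltransferases that bring long fatty acids into mitochondria, gave 18, 0 and 0 reads in il34-/- fish, or 2.46, 0 and 0 CPM, against 71.8, 71.3 and 54.1 CPM in controls and 39.8, 32.4 and 35.5 in csf1rDM fish at 1.5 mpf. At 33 dpf all 6 fish held between 45.6 and 116.7 CPM of it. si:dkey-29h14.10 was at 0, 0.071 and 1.13 CPM in il34-/- fish, 21.7, 36.8 and 32.3 in controls and 56.7, 40.8 and 73.9 in csf1rDM fish.

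RAG1, which cuts antigen receptor genes in developing lymphocytes, was at 11.3, 3.41 and 0.113 CPM in il34-/- fish, 218, 57 and 23.5 in controls and 49.6, 172 and 114 in csf1rDM fish at 1.5 mpf. It was absent in 2 of the 3 controls at 33 dpf, which held 0, 48.1 and 0 CPM. Its partner RAG2 was scarce, at 0, 1.39 and 19.1 CPM in il34-/- fish and 15.1, 0 and 4.57 in controls, and overlapped. F13A1, the coagulation factor XIII subunit that macrophages make in mammals, was at 25.9, 26.6 and 0 CPM in il34-/- fish, 174, 123 and 141 in controls and 207, 188 and 103 in csf1rDM fish. The controls at 33 dpf were as low, at 11, 0 and 14.4 CPM, while csf1rDM fish of that age held 144, 175 and 149 CPM.

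Genes of sensing and adhesion were also among the lower members. NOD1, a sensor of bacterial cell wall, was at 17.7, 17.2 and 0 CPM in il34-/- fish, 58.9, 102 and 64.5 in controls and 68.7, 116 and 27.6 in csf1rDM fish. itgam.2, an integrin alpha M gene of the kind that marks myeloid cells, was at 16.1, 10.3 and 23.6 CPM in il34-/- fish, 61.6, 126 and 52.1 in controls and 38.8, 64.6 and 135 in csf1rDM fish. ptgdsb.1, a prostaglandin D2 synthase of the lipocalin type, was at 5.6, 5.37 and 7.0, 58.8, 72.3 and 60.2 and 35.8, 21.2 and 47.7 CPM. klf2a, a transcription factor that is induced by blood flow in endothelium, was at 73.6, 54.7 and 11.5 CPM in il34-/- fish, 238, 102 and 154 in controls and 139, 179 and 223 in csf1rDM fish.

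USP8, a deubiquitinase of endosomes, was at 63.9, 12 and 6.78 CPM in il34-/- fish against 172, 272 and 135 in controls and 209, 145 and 151 in csf1rDM fish. The other lower members among the 15 with the largest folds were AGBL5, which trims glutamates from tubulin tails, GCNT4, which branches O-glycans, the receptor phosphatase PTPRF, TLNRD1, tmem71 and itgam.2. Of the 33 lower members, 13 had 3 counts or fewer in at least 1 il34-/- fish. il34-/- fish 1 held the highest of the 3 values for 17 of the 33, and without it the rule was met by 60 lower genes in place of 33, of which 28 were members. Leaving out fish 2 or fish 3 also raised the number, to 47 and 45, since fewer fish then have to meet the rule.

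**Figure D4:**
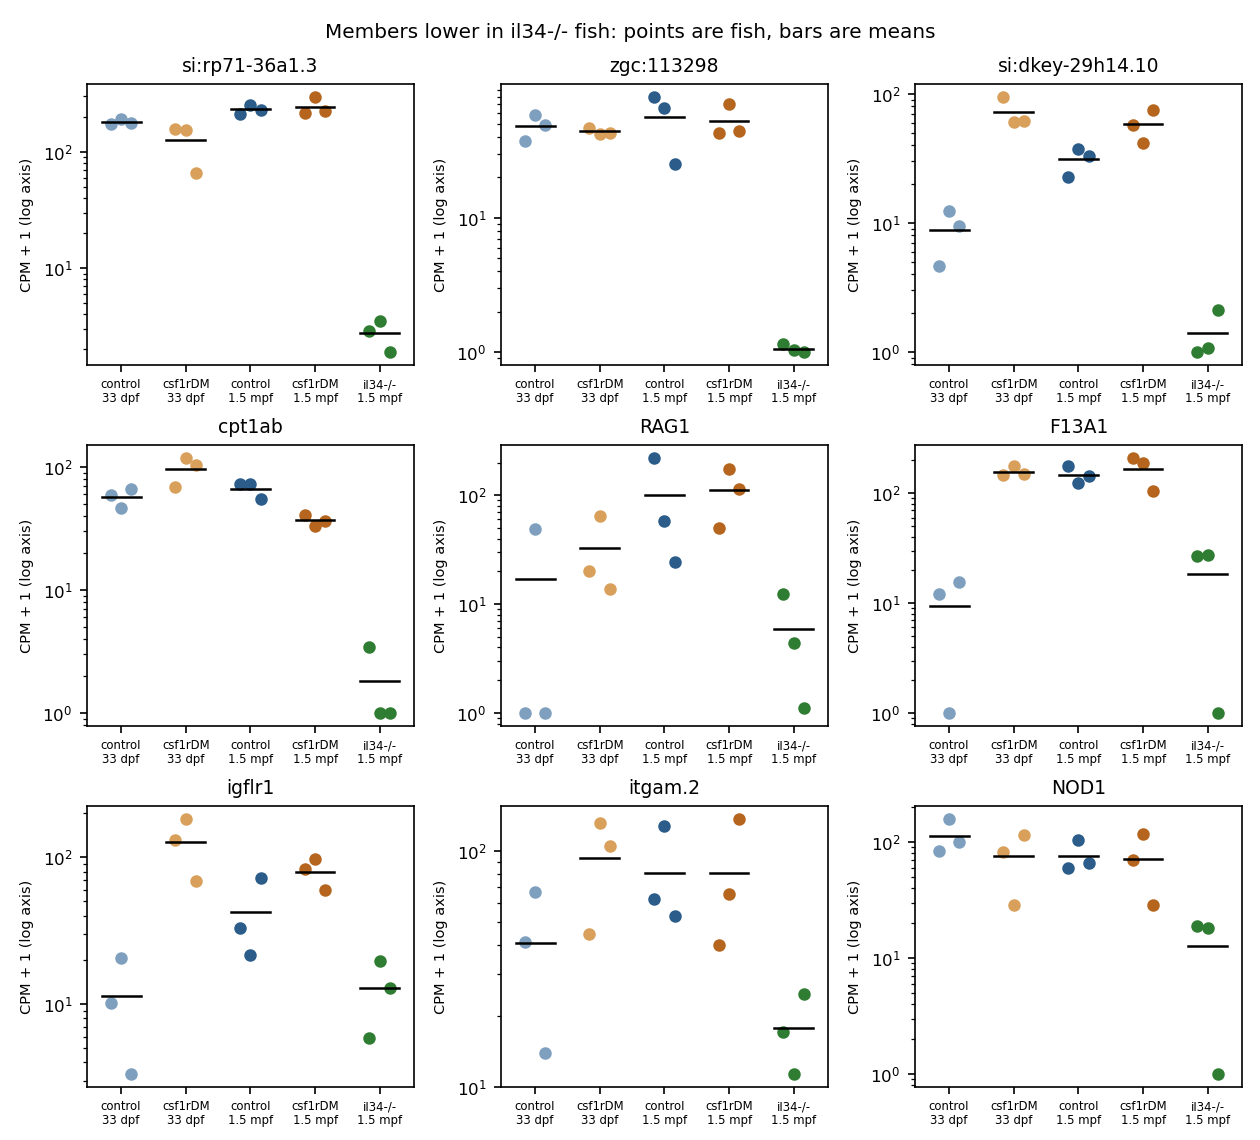
CPM plus 1 (log axis) of 9 members lower in il34-/- fish, with a point per fish and a bar at the mean of each group of 3. For si:rp71-36a1.3, zgc:113298 and cpt1ab all 12 other fish lie above the il34-/- fish, whereas for F13A1 and igflr1 the controls at 33 dpf lie in or near the il34-/- range.

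The fish at 33 dpf allow a look at these genes outside the groups that chose them. For the higher members, the median level of controls at 33 dpf lay between those of the older controls and of il34-/- fish. The rule chose the control and csf1rDM fish at 1.5 mpf as the low side and the il34-/- fish as the high side. Nothing was therefore read from setting the fish at 33 dpf beside these groups. The mean of the controls at 33 dpf was above that of il34-/- fish for 23 of the 80. The share of all genes was not computed here, so nothing was read from this count. The csf1rDM fish at 33 dpf had levels near those of the older controls. The median over the 80 members of the group mean was 65.9 CPM in controls and 24.9 in csf1rDM fish at 33 dpf, and 17.8, 19.9 and 82.3 CPM in control, csf1rDM and il34-/- fish at 1.5 mpf. The summed level of the 80 was 14760, 6784 and 8878 CPM in controls at 33 dpf and 3096, 3786 and 3141 in csf1rDM fish of that age, with no overlap. It was 3752, 2653 and 2326 CPM in controls, 3225, 3376 and 3302 in csf1rDM fish and 13530, 11180 and 13000 in il34-/- fish at 1.5 mpf. Control fish 1 at 33 dpf was the highest of its group and also had 4745 CPM of muscle markers where the other 2 had 1100 and 1025, and the part of this in its level was not tested.

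Markers of many cell types differed between the same groups at 33 dpf. Of 23 cell type lists, the summed level in csf1rDM fish lay above all controls for 6 and below for 9. Metaphocyte markers summed to 9027 to 11750 CPM in csf1rDM fish and 4615 to 6305 in controls, with 8 of 22 genes above and 3 below all controls. The metaphocyte list includes MPEG1, which macrophages express too and whose promoter drives the reporter. Its mean was 7161 CPM in csf1rDM fish and 3498 in controls, a large part of the difference in the sum. Keratinocyte markers, some of them shared with that list, summed to 8127 to 8379 and 5109 to 5562 CPM, with 13 of 34 above and 2 below, and dendritic cell markers to 3584 to 4829 and 1406 to 2310 CPM, with 9 of 16 above. In the other direction, endothelial markers summed to 4.55 to 38.1 CPM in csf1rDM fish and 354 to 604.9 in controls, with 5 of 16 below and 4 at 0 in all controls. Thrombocyte markers summed to 334.5 to 491.9 and 1403 to 2050 CPM, with 2 of 11 below, and microglial markers were below for 8 of 13. Macrophage markers, MPEG1 among them, were below for 17 of 27 and above for 1. Their sums overlapped, at 9452 to 12570 CPM in csf1rDM fish and 10480 to 13220 in controls. The part of these cell types in the levels of the members was not tested.

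All 3 controls at 33 dpf lay above all 3 controls at 1.5 mpf for 54 of the 80 members (67.5%, against 13.3% of all genes tested) and below for 0 (6.79%). The controls at 1.5 mpf had a part in the choice of these genes as the low side, so nothing was read from this share. All 3 csf1rDM fish at 33 dpf lay below all 3 il34-/- fish for 67 of the 80 (13.2% of all genes tested), while all 3 controls at 33 dpf did for 15 (6.12%). The rule chose the il34-/- values as the high side, so nothing was read from these shares either. In 13 members all 6 fish at 33 dpf lay below the il34-/- fish (2.9% of all genes tested), namely DKC1, mrpl9, RAB5IF, EXOSC7, PSAT1, UCK2, ppp1cab, PDSS1, SSR1, ABCF2, AHSA1, SERP1 and dnase1l4.2. Without control fish 1 at 33 dpf this number was 35. In another 13 members, among them FBL, GART, PWP2, POLD1 and aqp7, which encodes a channel for water and glycerol, no control at 33 dpf lay below the il34-/- fish.

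Between csf1rDM and control fish at 33 dpf, 9 of the 80 higher members passed edgeR's quasi-likelihood test at an adjusted p of 0.05 as lower in csf1rDM cells (11.2%, against 1.34% of all genes tested) and 0 as higher, for which the share of all genes tested was 1.71% (3.05% in both directions together). At an unadjusted p under 0.05, 30 were lower and 1, PSAT1, was higher. The share of all genes at that limit was not computed, so nothing was read from these counts. The median log2 fold change of the 80 was -1.34, against 0 over all genes tested, and 71 of the 80 were negative, against 49.9% of all genes. The 3 csf1rDM fish lay below the 3 controls for 45 of the 80 (56.2%, against 15.3% of all genes tested) and above for 1, il21, which was at 32.9, 26.8 and 24.6 CPM in csf1rDM fish and 11.6, 24.2 and 21.2 in controls (8.96% of all genes tested lay above).

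NOP58 fell from 628, 271 and 397 CPM in controls to 50.05, 109 and 72.8 in csf1rDM fish at 33 dpf, a log2 fold change of -2.28 (SE 0.343, edgeR adjusted p = 0.00332). The fall was seen in all 3 mutant fish, none of which overlapped with a control. npm1a fell from 1739.8, 777 and 1189.8 to 259.7, 338 and 203 CPM, a log2 fold change of -2.01 (SE 0.341, edgeR adjusted p = 0.0065). SNU13 fell from 117, 82.7 and 121 to 20.7, 22.5 and 24.6 CPM, a log2 fold change of -2.05 (SE 0.381, edgeR adjusted p = 0.0105). FBL fell from 513, 289.7 and 348 to 111, 144 and 60.6 CPM, a log2 fold change of -1.66 (SE 0.31, edgeR adjusted p = 0.0112). These 4 nucleolar genes were joined by 2 helicase subunits. MCM2 fell from 827, 371 and 391 to 52.1, 42.3 and 157 CPM, by 2.49 on the log2 scale (SE 0.47, edgeR adjusted p = 0.0121), and MCM3 from 621, 149.96 and 253 to 105.8, 19.2 and 49.4 CPM, by 2.38 (SE 0.568, edgeR adjusted p = 0.0396).

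The other 3 were HK2, PRMT1 and mmp25b. HK2 fell by 2.18 on the log2 scale (SE 0.541, edgeR adjusted p = 0.0473), from 396, 175 and 217 to 56.4, 26.8 and 70.8 CPM. PRMT1 fell by 1.17 (SE 0.285, edgeR adjusted p = 0.0434), from 812, 543 and 702 to 338, 281 and 179.5 CPM. mmp25b was at 20.2, 34.3 and 74.8 CPM in controls and gave 0, 5 and 0 reads in csf1rDM fish at 33 dpf, where its fitted log2 fold change of -10.1 (SE 2.33, edgeR adjusted p = 0.0328) rests on so few reads that it depends on how the model treats values near 0.

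In the pathway lists, which the members helped to write, some genes that were not members fell as well. The counts and medians below are over members and other genes together. Of the 14 genes of the small nucleolar particles, 7 were called lower in csf1rDM cells at 33 dpf and 0 higher (1.34% and 1.71% of all genes tested), with a median log2 fold change of -1.58, and the 4 that were not members were NOP56, RRP9, NHP2 and NOP10. Of the 110 ribosome assembly genes, 7 were called lower, among them the member npm1a, and 0 higher, with a median of -1.14. Of 24 tested genes of the helicase and its partners, 3 were called lower and 0 higher, with a median of -1.28. MCM2 and MCM3 among these calls are members. CDC7 is not, and its mean was 23.3 CPM in controls and 0 in csf1rDM fish. For 78 tested cytoplasmic ribosomal proteins, 7 were called lower and 0 higher, with a median of -0.61, which differs from the comparison of il34-/- with control fish, where their sums overlapped.

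The differences of the lower members at 33 dpf were smaller. The median over the 33 of the group mean was 46.2 CPM in controls and 66.8 in csf1rDM fish at 33 dpf, against 63.7, 59.6 and 11.8 CPM in control, csf1rDM and il34-/- fish at 1.5 mpf. The values at 1.5 mpf chose these genes, so nothing was read from setting the fish at 33 dpf beside them. Of the 33, 2 passed edgeR's test as higher in csf1rDM cells at 33 dpf (6.06%, against 1.71% of all genes tested) and 0 as lower (1.34%). At an unadjusted p under 0.05 the numbers were 7 and 0, again without a share of all genes, so nothing was read from them. igflr1, which encodes a receptor for IGF-like proteins, rose from 9.19, 19.5 and 2.34 CPM in controls to 130.2, 181 and 67.8 in csf1rDM fish, a log2 fold change of 3.82 (SE 0.796, edgeR adjusted p = 0.0197). cfl1l rose from 45, 39 and 50.6 to 142, 137 and 153 CPM, a log2 fold change of 1.87 (SE 0.324, edgeR adjusted p = 0.00711), and its 3 csf1rDM fish lay far above the controls.

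The median log2 fold change of the 33 was 0.62, and 28 were positive. The csf1rDM fish lay above the controls for 8 of the 33 (24.2%, against 8.96% of all genes tested), namely si:dkey-29h14.10, cpt1ab, F13A1, arhgef12b, igflr1, ANKRD22, ARSA and cfl1l. They lay below for 1 (15.3% of all genes tested), si:rp71-36a1.3. All 6 fish at 33 dpf lay above the 3 il34-/- fish for 17 of the 33 (2.7% of all genes tested). Among these 17 were si:rp71-36a1.3, zgc:113298, cpt1ab, USP8 and NOD1. The rule chose the il34-/- values as low and placed the older control and csf1rDM fish above them. The share is therefore not comparable, and nothing was read from this count. F13A1 was the only lower member for which no control at 33 dpf lay above the il34-/- fish, and klf2a the only lower member for which no csf1rDM fish at 33 dpf did.

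**Figure D5:**
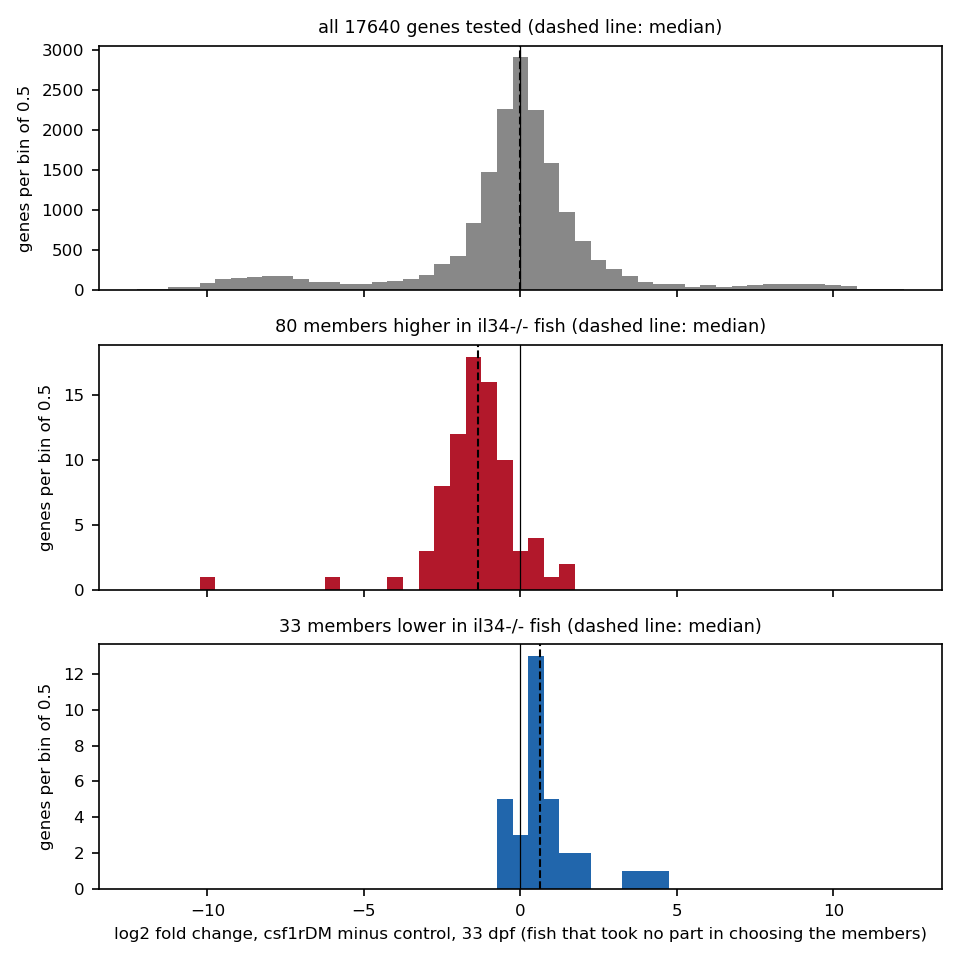
Number of genes by log2 fold change between csf1rDM and control fish at 33 dpf (n = 3 each, bins of 0.5), for all 17640 genes tested, the 80 members higher in il34-/- fish and the 33 lower. The dashed lines mark medians of 0, -1.34 and 0.62, and 71 of the 80 higher members lie below 0.

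The calls at 33 dpf depend on the spread borrowed from the other groups. When only the 6 libraries compared were fitted, 2 of the 9 calls on higher members and 1 of the 2 on lower members remained, with medians of -1.35 and 0.62 and adjusted p between 0.0554 and 0.192 for the calls that were lost, and without control fish 1 or control fish 3 at 33 dpf 4 and 5 calls were made on higher members. Scaling by library size alone lowered the median over all genes by 0.184, gave 209 higher and 344 lower calls over all genes in place of 302 and 236, and gave 13 calls on higher members with a median of -1.53.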

How the data were processed

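The data were RNA-sequencing libraries of mpeg1-GFP+ cells that the authors sorted from 15 single fish, after cutting up the whole animal, dissociation with trypsin and gating on scatter, single cells, a viability dye and GFP. cDNA was amplified with a low-input kit and sequenced as 2 reads of 75 bp. The authors mapped the reads with STAR to GRCz10 and deposited raw counts of reads per Ensembl gene, without normalization. The submitters' processing notes also name STAR 2.5.4b, HTSeq 0.11.0, Cufflinks 2.2.1, cutadapt, CASAVA 1.8 and edgeR, without saying which step each served. The annotation, the counting settings and the use of strand are not given in the sources used here, so reads shared by near-identical copies or by overlapping genes may be split or lost. Groups and replicate numbers came from the sample labels.

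Members were chosen from CPM by column totals as the report describes, with the fold on the mean plus 1 CPM. The members and the gene lists were chosen with earlier results of these data known, and the pathway lists of growth genes were written after the members had been seen, so neither is independent evidence. Symbols came from a reference table that gave one for 27000 of 35117 identifiers. Gene order came from a RefSeq table of another assembly, GRCz12tu, of which no position is given. Group comparisons used edgeR 4.0.16 in R 4.3.3 (TMM scaling, filterByExpr by group, which kept 17640 genes, robust quasi-likelihood fit of all 15 libraries with a coefficient per group, Benjamini-Hochberg adjustment at 0.05). The p-values rest on the spread between single fish, 3 a group, pooled over all 15 libraries and partly shared across genes. A level of 3 counts, the smallest taken as shown, corresponds to between 0.0282 and 0.547 CPM, and this covers counting error only, since amplified cDNA carried no molecular identifiers and its reads are not separate molecules. Tested on simulated data for the comparison of csf1rDM with control fish at 33 dpf, the fit found 22.5% of 200 genes made to differ by a log2 value of 2 among 16545 genes, and 61.5% where that value was 4 among 16602. The 200 genes were drawn only from those above the median level, so the recovery of scarcer genes was not simulated.

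The genes named were the 15 members in each direction with the largest of the smaller log2 ratios, the members in a fixed list, those called at 33 dpf, those nearest the threshold, neighbours within 5 genes, and il34, csf1ra, csf1rb and mpeg1. Levels of the Csf1 ligands are not given. Further genes were named to illustrate a pathway, and 1 member is not reported here. The alternatives were other thresholds of the rule, TMM-scaled CPM, RLE scaling, library size only, DESeq2 1.42.0, no filter, only the libraries compared, thinning to the smallest total, a replicate block and leaving out each fish. Sequences of the members were not used here.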

Additional observations from a re-analysis of the deposited data

How the results depend on the processing

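The number of members follows the thresholds of the rule. A 2-fold limit gave 303 higher and 82 lower genes, a 4-fold limit 26 and 16, a lowest CPM of 50 gave 47 and 8, and a lowest CPM of 10 gave 107 and 59. TMM-scaled CPM gave 58 higher genes, all members, and 40 lower genes, of which 32 were members. Leaving out each fish in turn gave 76 to 116 higher and 33 to 60 lower genes.

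At 33 dpf, edgeR called 538 genes between csf1rDM and control fish, against 2142 with DESeq2, 148 with only the 6 libraries compared and 242 to 476 with a fish left out. DESeq2 called 23 of the higher members lower and 7 of the lower members higher, only the libraries compared gave 2 and 1, and leaving out a fish gave 4 to 10 and 1 to 3. The median log2 fold change ranged from -1.60 to -1.03 over the higher and from 0.40 to 0.83 over the lower members with a fish left out, and was 0.43 over the lower members with library size only. With a fish left out, the number of members with every fish at 33 dpf on the control side ranged from 13 to 35 (higher) and 17 to 21 (lower). The number of members without overlap at 33 dpf ranged from 46 to 59 and 8 to 12, and was chosen after seeing the data. Leaving out a fish can only keep or raise either number, so these ranges cannot show a fall. With TMM-scaled CPM, 15 and 16 members lay on the control side, in place of 13 and 17. Those without overlap were then 38 and 8, in place of 45 and 8. The il34-/- against control comparison had 121 calls, against 1144 with DESeq2, 61 with only the libraries compared and 16 to 107 with a fish left out.

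The deviations of same-numbered fish had correlations of -0.02 to 0.018 at 33 dpf and 0.011 to 0.077 between il34-/- and control fish. Fish of different numbers had -0.026 to 0.024 and -0.047 to 0.027. These small values do not show whether fish of the same number shared a batch. With the number as a replicate block, 264 genes were called at 33 dpf, 6 higher and 1 lower member among them, with medians of -1.48 and 0.73, and the il34-/- against control comparison had 19 calls. Of the 11 members called at 33 dpf, each kept its direction under every alternative run. HK2, PRMT1, mmp25b, MCM3, igflr1 and FBL lost the call under 8, 7, 6, 5, 4 and 2 of 13 alternatives, and their adjusted p ranged up to 0.17, 0.139, 0.118, 0.192, 0.0995 and 0.0845. NOP58, npm1a, MCM2, SNU13 and cfl1l each lost it under 1. With 3 fish a group, a missed call does not show that levels were alike.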

Other observations

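Sums of other whole lists at 1.5 mpf are given as values only, and some of these lists hold members. The 46 measured genes of glycolysis and hypoxia summed to between 9011 and 9282 CPM in il34-/- fish, against 6014 to 6687 in controls and 5699 to 6659 in csf1rDM fish. The il34-/- fish lay above the 6 others for 11 of the 40 that were tested (5.8% of all genes tested). This count uses the contrast of the rule and includes the member HK2, so nothing was read from it. Genes of tRNA synthetases and cap-binding translation factors summed to 5156 to 6042 CPM in il34-/- fish, 2579 to 3210 in controls and 2720 to 3308 in csf1rDM fish. That list was written after the members had been seen and holds the members WARS1 and eif4e1c. MHC class II genes, which present antigen, summed to 12580 to 15290 CPM in il34-/- fish, below the 15960 to 21900 CPM of controls and the 22900 to 28770 CPM of csf1rDM fish. Inflammatory cytokines and chemokines summed to 1422 to 1940 CPM in il34-/- fish, 2669 to 2940 in controls and 2150 to 2356 in csf1rDM fish. At 33 dpf, MHC class II genes summed to 6758 to 10350 CPM in controls and 17180 to 25030 in csf1rDM fish.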
